A study of Mus musculus with 2 samples.

Results

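Cancer-associated fibroblasts (CAFs) were examined in single-cell RNA-Seq libraries of cholangiocarcinoma-bearing mouse livers, 302 of 15531 cells in the shYT library given PBS and 95 of 16360 cells in the shYT library given anti–PD-1, 397 of 31891 cells in all. Cells were selected on their transcripts. A cell was kept with 500 to 5000 detected genes, at most 10% of its UMIs (unique molecular identifiers, 1 per captured transcript) from mitochondrial genes, and a UMI of at least 3 of 7 fibroblast markers, namely *Col1a1*, *Col1a2*, *Col3a1*, *Dcn*, *Lum*, *Pdgfra* and *Pdgfrb*. A cell with any UMI of *Epcam* (epithelium), *Cd3e* (T cells), *Cd79a* (B cells), *C1qa* (macrophages), *Cdh5* (endothelium) or *Upk3b* (mesothelium) was left out. The cells that met these conditions are called the fibroblast gate.

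Cholangiocarcinomas (CCAs) had been started by hydrodynamic tail vein injection, which carried plasmids for the activated Notch receptor fragment NICD and for myr-AKT, a membrane-bound form of the AKT kinase, into the liver. Mice of both groups carried a ubiquitous CAG-rtTA3 transgene and an shRNA allele knocked in downstream of *Col1a1*, and doxycycline from day 25 switched on the shRNAs, whose targets are *Yap1* and *Wwtr1* (which encodes TAZ), the state the labels call shYT. One group received PBS. The other was given an anti-mouse PD-1 antibody 3 times (days 26, 29 and 32), and all livers were dissociated with Pronase and Collagenase P on day 33. Both libraries came from shYT animals, so the effect of the knockdown itself was not compared. The labels gave no sex, no age and no number of animals. The study states several replicates per group, but each group was 1 library here with no map from cells to animals, so no difference below has a replicate check and none carries a p-value. Intervals are 95% and cover counting error only.

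CAFs are the matrix-producing stroma of liver tumors. In bile duct cancers they are known to arise largely from hepatic stellate cells, the vitamin A–storing pericytes of the sinusoid, and from portal fibroblasts, which surround the bile ducts and vessels. They can take on a contractile myofibroblast state, which builds smooth muscle actin fibers and deposits collagen, an inflammatory state, which secretes chemokines, IL-6 family cytokines and complement, or an antigen-presenting state, and interferon-γ from T cells is a textbook inducer of MHC genes and guanylate-binding proteins in stromal cells.

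The label was checked against the genes that set the gate apart from all other cells. Among genes with at least 100 CPM (a gene's UMIs per 1000000 UMIs summed over the gate cells of a library), the 15 with the largest ratio of gate to other cells were *Mfap4*, *Dcn*, *Col1a2*, *Col3a1*, *Eln*, *Serping1*, *Bgn*, *Mgp*, *Lum*, *Smoc2*, *Postn*, *Cilp*, *Adamts2*, *Serpinf1* and *Sparcl1*. These are genes of fibrillar collagen, elastic fibers, proteoglycans and other secreted matrix, and some of them were part of the selection, so they describe the gate and test nothing. *Dcn*, the proteoglycan decorin, stood at 5502 CPM in gate cells and 152 CPM in all other cells given PBS, and at 7109 and 101 CPM with anti–PD-1. *Mfap4*, an elastic fiber protein that was not used for selection, stood at 987 against 22.3 CPM and at 1144 against 6.45 CPM.

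The gate also held transcripts of leukocytes, and more of them in the anti–PD-1 library. At least 2 of 5 pan-leukocyte genes (*Ptprc*, *Coro1a*, *Laptm5*, *Cd52*, *Rac2*) were detected in 93 of 302 PBS cells (30.8%, exact interval 25.6% to 36.3%) and in 47 of 95 anti–PD-1 cells (49.5%, 39.1% to 59.9%). The median UMIs of the gate markers were 11 and 8 in those cells, against 45 and 27 in the rest. The summed level of 9 neutrophil markers was 2349 CPM in the PBS gate and 12160 CPM in the anti–PD-1 gate, that of 11 macrophage markers 2152 and 5162 CPM, and those of 12 T and NK cell markers 528 and 558 CPM. Markers of tumor epithelium summed to 2951 and 1162 CPM and those of hepatocytes to 599 and 319 CPM. Pancreatic acinar markers summed to 6.23 and 310 CPM, B and plasma cell markers to 537 and 580 CPM, and endothelial markers to 453 and 227 CPM. The part of these transcripts in the differences below was not tested beyond the smaller sets of cells described next.

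A calibration came from cells with at least 1 UMI of a T or B cell gene, which does not by itself show that they are lymphocytes. Among all cells with a *Cd3e* UMI, 84 of 3089 (2.72%) with PBS and 49 of 3891 (1.26%) with anti–PD-1 had UMIs of at least 3 gate markers, and among cells with a *Cd79a* UMI the shares were 2.85% and 1.61%. These shares were counted without the exclusion genes, so they are not set against the gate's own share. Before exclusion, 808 PBS and 376 anti–PD-1 cells of any type had at least 3 markers, and the exclusion removed 506 and 281. Some cells with lymphocyte transcripts thus reached 3 markers, so passing the gate does not by itself show that a cell is a fibroblast. The counts of each gene list below are therefore given for the whole gate and again for the gate cells with at most 1 pan-leukocyte gene (209 PBS and 48 anti–PD-1 cells), which are called the leukocyte-depleted gate, whereas single genes are given for the whole gate unless stated. Neutrophil markers summed to 158 and 543 CPM there and macrophage markers to 901 and 1920 CPM. That set was chosen after the values of the whole gate were seen.

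**Figure D1:**
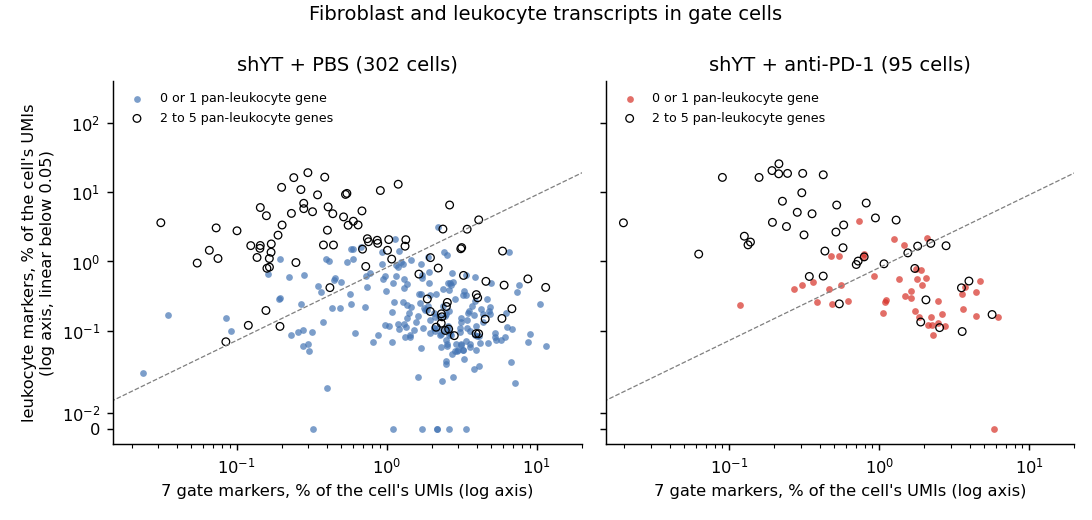
Each point is 1 gate cell, with the share of its UMIs from the 7 gate markers on the x axis and the share from leukocyte marker lists on the y axis (percent of UMIs), by library. Leukocyte UMIs were at least as many as gate marker UMIs in 87 of 302 PBS cells and in 45 of 95 anti–PD-1 cells.

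Depth per gate cell was similar. The libraries held 121713441 and 100807037 UMIs, the gates 1284145 and 326063 UMIs, and the median gate cell had 2468 UMIs with PBS and 2120 with anti–PD-1. The libraries shared 219 of their cell barcodes, and none of them was a gate cell in both. *Xist*, the RNA of the inactive X chromosome, was found in 120 PBS gate cells and in no anti–PD-1 gate cell, whereas Y-linked transcripts without *Xist* were found in 20 and 44 cells. Y-linked transcripts were as frequent in PBS gate cells with *Xist* (12 of 120) as in those without it (20 of 182), so a Y-linked UMI does not show that a PBS cell came from a male. Sex and treatment therefore cannot be told apart in any set of cells, and values for the cells with Y-linked transcripts and no *Xist* are given as those of a smaller set and not as a comparison within 1 sex.

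Gate cells made up 1.94% of the PBS library (exact interval 1.73% to 2.17%) and 0.581% of the anti–PD-1 library (0.470% to 0.709%), a ratio of 3.35 (2.65 to 4.26). In the leukocyte-depleted gate the shares were 1.35% and 0.293% and the ratio was 4.59 (3.34 to 6.42). The direction was the same with the number of markers lowered or raised by 1, with 415 and 177 cells for at least 2 markers and 238 and 53 cells for at least 4. At the edge of the selection stood 64 PBS and 42 anti–PD-1 cells with exactly 3 markers, and 113 and 82 cells fell just outside with exactly 2. All 7 markers were detected in 47 and 7 cells. Other gates of the 2 libraries also differed in size. The endothelial gate held 281 and 39 cells, the epithelial gate 773 and 356, and the neutrophil gate 880 and 1701. Macrophages numbered 3904 and 4034, B cells 732 and 990, and T cells 2298 and 2043. Smaller counts with anti–PD-1 were thus not particular to the fibroblast gate. How many fibroblasts the digestion released from each liver is not known, and its part in the ratio of gate shares was not tested.

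Expression was then compared between the gates on UMIs summed per library. Of 9638 genes with a mean of at least 10 CPM, 660 (6.85%) were at least 2-fold higher in the anti–PD-1 gate and 649 (6.73%) at least 2-fold lower, on a log2 scale after adding 5 CPM, and the median over all genes was −0.02. In the leukocyte-depleted gate the counts were 1007 higher (10.7%) and 1180 lower (12.5%) of 9410 genes. That set held only 896148 and 143744 UMIs, so its ratios rest on fewer UMIs and its larger counts do not show that more genes differed. The 2-fold limit is a fixed size and not a test. These shares are the background for each gene list that follows, and list members under 10 CPM were left out of the counts.

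Contractile genes were lower in the anti–PD-1 gate. Of 19 measured members, 11 were at least 2-fold lower and none higher, against 6.73% of all genes, and all 19 had log2 ratios below 0, with a median of −1.25. *Acta2*, which encodes smooth muscle actin and marks myofibroblasts (chromosome 19, 34241090 to 34255590 on the minus strand, GRCm38), stood at 2997 CPM (2903 to 3093) in the PBS gate and at 644 CPM (560 to 737) in the anti–PD-1 gate. It was detected in 152 of 302 and 33 of 95 cells. The log2 ratio was −2.21 (−2.41 to −2.01).

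The genes of the actin-binding and myosin apparatus went the same way. *Tagln*, the actin-binding protein transgelin, stood at 2719 and 601 CPM (log2 ratio −2.17), *Tpm2*, a tropomyosin, at 949 and 322 CPM and *Myl9*, a regulatory light chain of myosin, at 815 and 276 CPM. *Cnn1*, calponin of differentiated smooth muscle, was at 218 and 18.4 CPM (log2 ratio −3.25, −4.26 to −2.29), and the enteric actin *Actg2* at 579 and 67.5 CPM. *Vim*, the intermediate filament protein of all mesenchymal cells, was level at 2068 and 1997 CPM. The difference was thus uneven within the cytoskeleton, with the smooth muscle isoforms far lower and vimentin within its counting error.

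The lower contractile level was also present without the leukocyte-rich cells. In the leukocyte-depleted gate 12 of 19 members were at least 2-fold lower and 1 higher, with a median of −1.17, and *Acta2* stood at 2599 and 536 CPM. Among the gate cells with UMIs of at least 2 of the portal fibroblast genes *Pi16*, *Clec3b*, *Dpt*, *Cd34*, *Mfap5* and *Cd248* (92 and 28 cells, also chosen after values were seen), 14 of 18 tested members were at least 2-fold lower, against 11.1% of all genes there. *Acta2* stood at 2005 and 82.2 CPM in those cells. In cells with Y-linked transcripts and no *Xist* (20 and 44 cells) the log2 ratio of *Acta2* was −3.18 and that of *Tagln* −2.45.

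Contractile transcripts were concentrated in few cells of each gate. Of 9606 UMIs of *Acta2*, *Tagln*, *Myl9* and *Tpm2* in the PBS gate, 12.6% came from 1 cell, which had 11 UMIs of gate markers among 12958 in all, 22.3% from 2 cells and 40.1% from 5. Of 601 such UMIs in the anti–PD-1 gate, 46.8% came from 2 cells, 1 of them with 3 UMIs of gate markers. Cells with more contractile than gate marker UMIs numbered 30 and 6 and held 62.5% and 58.6% of the contractile UMIs, and whether they were fibroblasts or mural cells was not tested. Among the 198 and 47 gate cells whose markers made up at least 1% of their UMIs, a set chosen after values were seen, 11 of 18 contractile genes were at least 2-fold lower and none higher (median −1.13), against 8.93% of all genes lower and 7.59% higher there. *Acta2* stood at 2127 and 475 CPM in that set.

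Serum response factor, with its myocardin-related coactivators, is the textbook regulator of these genes through the CArG box. The first 250 bases upstream of the start of *Myl9* are shown because this promoter, from RefSeq on GRCm38.p6, held a CArG box, written in capitals, on the plus strand of chr2:156775214-156775463.
Myl9: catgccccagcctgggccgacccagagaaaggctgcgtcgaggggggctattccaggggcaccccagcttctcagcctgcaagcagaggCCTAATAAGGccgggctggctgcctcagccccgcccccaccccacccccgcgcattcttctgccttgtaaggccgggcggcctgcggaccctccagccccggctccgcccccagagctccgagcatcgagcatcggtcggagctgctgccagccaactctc
A CArG box on either strand was found in 2 of 15 contractile genes with a promoter sequence (*Myl9* and *Cnn2*) and in 1.62% of 27025 genes. A match describes these letters only, and it says nothing about binding in these cells.

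Genes of the matrix-depositing myofibroblast were lower as well. Of 13 tested members of this list, which shares *Acta2* and *Tagln* with the contractile list, 9 were at least 2-fold lower and none higher, with a median log2 ratio of −1.59. *Cthrc1*, a secreted protein of activated fibroblasts, had a level of 360 CPM (328 to 394) with PBS and 49.1 CPM (28.0 to 79.7) with anti–PD-1, *Tnc*, the adhesion-modulating glycoprotein tenascin C, at 333 and 70.5 CPM (a log2 ratio of −2.16, but −0.64 in the 96 and 16 cells without *Ptprc*, *Krt19*, *Krt8*, *Alb* and *S100a8*), and *Col11a1*, a fibril-nucleating collagen chain, at 116 and 15.3 CPM. *Fap*, a surface protease often used to mark CAFs, was low in both gates, at 20.2 and 18.4 CPM. Without leukocyte-rich cells 11 of 13 were at least 2-fold lower, with a median of −1.86. *Spp1*, the phosphoprotein osteopontin, was at 2582 and 856 CPM, but it is also a marker of the tumor epithelium, whose summed markers were lower too, and the part of that in the *Spp1* value was not tested.

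**Figure D2:**
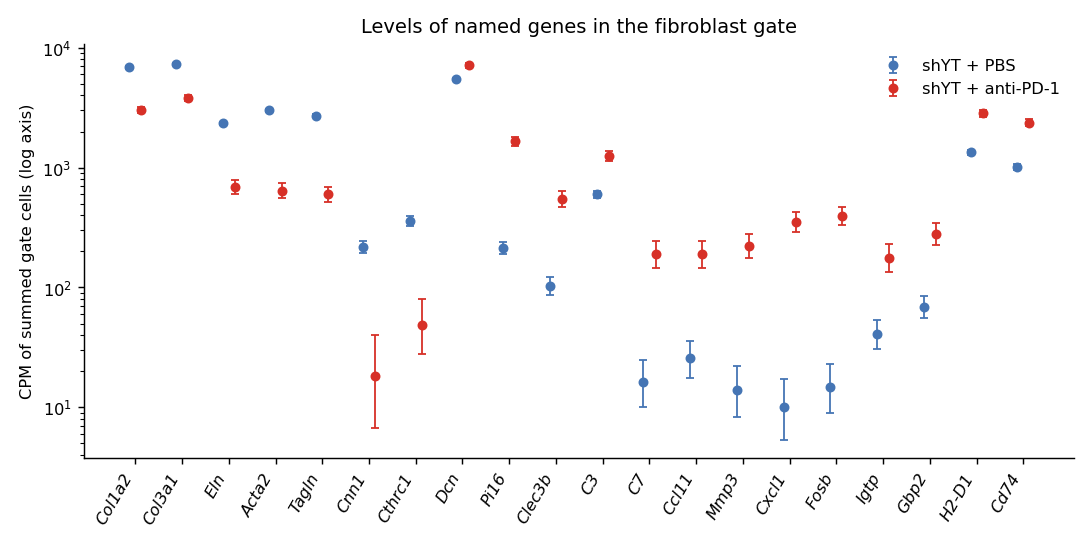
CPM of 20 named genes in the summed gate cells of each library on a log axis, with 95% Poisson intervals as bars, blue for PBS and red for anti–PD-1. Collagen and contractile genes on the left stood lower in the anti–PD-1 gate, *Dcn* differed little, and chemokine, portal fibroblast and interferon-γ genes on the right stood higher.

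Collagens were lower by a smaller amount. Of 17 chains on the list, 6 were at least 2-fold lower and none higher, but 3 of the 17 served as gate markers. Of the other 14, 5 were at least 2-fold lower and none higher, 13 had log2 ratios below 0, and the median was −0.89. The gate markers, chains of the fibrillar types I and III, are given as a description only and stood at 4535 and 2579 CPM (*Col1a1*), 6844 and 3033 CPM (*Col1a2*) and 7335 and 3834 CPM (*Col3a1*). The chains of basement membrane collagen IV, which the selection did not use, were lower to a similar degree, *Col4a1* at 2673 and 1156 CPM (log2 ratio −1.21, −1.36 to −1.05) and *Col4a2* at 1626 and 644 CPM. This list does not hold *Col11a1*. Its lowest ratio was that of *Col12a1*, which decorates fibrils under tension (181 and 55.2 CPM, log2 ratio −1.62). In the cells with Y-linked transcripts the log2 ratio of *Col12a1* was −0.087. *Col6a3*, of beaded microfibrils, was at 984 and 374 CPM. *Col14a1*, another fibril-associated chain, was at 734 and 650 CPM, with an interval of its log2 ratio from −0.39 to 0.04 that includes no difference. Without the gate markers, the leukocyte-depleted gate gave 8 of 14 at least 2-fold lower with a median of −1.23, and the cells with portal fibroblast genes gave 4 of 14 with a median of −0.54.

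Other matrix proteins differed in direction. Of 31 matrix glycoproteins and proteoglycans, 8 were at least 2-fold lower and 3 at least 2-fold higher, with a median of −0.46, and 7 and 3 of 29 without the gate markers *Dcn* and *Lum*. Of the 31, 11 were lower and 6 higher in the leukocyte-depleted gate. *Eln*, which encodes elastin, was at 2339 and 687 CPM, *Fmod*, the collagen-binding proteoglycan fibromodulin, at 283 and 49.1 CPM, and *Sparc*, a collagen chaperone of the extracellular space, at 12038 and 5431 CPM. *Ogn*, which encodes the small proteoglycan osteoglycin, was instead at 154 CPM (133 to 177) and 577 CPM (497 to 665), and *Mfap5*, a microfibril protein of portal and adventitial fibroblasts, at 232 and 656 CPM, of which 100 of 214 anti–PD-1 UMIs came from 1 cell. The proteoglycan *Bgn* was lower (4465 and 2193 CPM). Its relative *Dcn* was a gate marker and is given as a description only, with a log2 ratio of 0.37 that ran from −0.069 with at least 2 gate markers to 0.89 in the leukocyte-depleted gate. Fibronectin, *Fn1*, stood at 2659 and 1466 CPM.

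Enzymes that modify and degrade the matrix varied by gene. Of 15 crosslinking and collagen-modifying genes, 4 were at least 2-fold lower and 1 higher, and 3 and 1 in the leukocyte-depleted gate. *Loxl2*, a lysyl oxidase that crosslinks collagen, stood at 491 and 199 CPM and *Plod2*, which hydroxylates collagen lysines for crosslinks, at 327 and 129 CPM, though its log2 ratio of −1.31 was −0.011 in those 96 and 16 cells, whereas *Tgm2*, a transglutaminase, stood at 110 and 233 CPM. Of 23 proteases and inhibitors, 5 were lower and 4 higher by that size, and 9 and 5 in the leukocyte-depleted gate. The metalloprotease inhibitors *Timp3* (903 and 239 CPM) and *Timp1* (624 and 276 CPM) were lower, though for *Timp1* not when each cell was weighted the same (log2 ratio 0.076), as was the membrane collagenase *Mmp14* (688 and 340 CPM), whose log2 ratio was −0.15 in the 96 and 16 cells.

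*Mmp3*, the secreted protease stromelysin, was the highest of the list, at 14.0 CPM (8.31 to 22.2) with PBS and 224 CPM (175 to 281) with anti–PD-1 (log2 ratio 3.59). Its 73 anti–PD-1 UMIs came from 8 cells, 27 of them from 1 cell. With leukocyte-rich cells left out it stood at 13.4 and 487 CPM, and it was at or under 1.03 CPM in the endothelial, epithelial, macrophage, neutrophil, B and T cell gates of either library. *Plaur*, the urokinase receptor, was at 51.4 and 261 CPM in the whole gate and 36.8 and 83.5 CPM in the leukocyte-depleted gate. *Mmp9*, a gelatinase that neutrophils store, was at 63.9 and 169 CPM in the whole gate, but at 12.3 and 13.9 CPM in the leukocyte-depleted one.

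TGF-β, the main profibrotic signal to fibroblasts, was represented by its ligands, latency proteins and receptors. Of 24 genes tested, 5 were at least 2-fold lower and 1 higher, and the median was −0.36. The leukocyte-depleted gate had 5 lower and 3 higher, with a median of −0.29. The ligand *Tgfb2* stood at 128 CPM (109 to 149) and 61.3 CPM (37.5 to 94.7), *Tgfb3* at 183 and 88.9 CPM and *Tgfb1* at 90.3 and 76.7 CPM, with a *Tgfb1* interval of the log2 ratio from −0.86 to 0.37. *Tgfb2* rested on 164 and 20 UMIs, and in the cells with Y-linked transcripts its log2 ratio was 0.12. It stood at 91.3 and 35.9 CPM in the epithelial gate and at 68.3 and 36.3 CPM in the endothelial gate. Summed markers of tumor epithelium were lower in the fibroblast gate too, at 2951 and 1162 CPM. The study describes tumor cells as nearly the sole source of *Tgfb2*. The part of tumor cell RNA in the fibroblast gate's *Tgfb2* value was not tested. *Ltbp2*, a microfibril protein of the latent TGF-β binding family, was at 391 and 79.7 CPM, and the coreceptor endoglin, *Eng*, at 335 and 144 CPM. *Tgfbi*, a secreted matrix protein named for its induction by TGF-β, was the other way, at 243 and 439 CPM (log2 ratio 0.84, 0.55 to 1.12).

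The targets of the shRNAs were shallow in the gate. *Yap1* stood at 20.2 and 27.6 CPM (26 and 9 UMIs), with an interval of the log2 ratio from −0.63 to 1.31, and *Wwtr1* at 93.4 CPM (77.5 to 112) and 33.7 CPM (16.8 to 60.4). With no library of animals without these shRNAs, the levels do not measure a knockdown. Of 26 tested genes out of 30 on the YAP/TAZ list, which holds the factors and genes known as their targets, 8 were at least 2-fold lower and 2 higher, with a median of −0.21, and 10 and 5 in the leukocyte-depleted gate, with a median of −0.36. The target *Ankrd1*, a stress-responsive ankyrin repeat protein, had 249 UMIs in 32 cells of the PBS gate and 2 UMIs in 2 cells of the anti–PD-1 gate, a ratio of 31.6 with a counting interval of 8.66 to 262. The matricellular targets *Ccn2* and *Ccn1* stood at 2191 and 1187 CPM and at 295 and 126 CPM. The partner *Tead1* stood at 137 and 33.7 CPM, and *Crim1* and *Myof*, further targets, were at 87.2 and 27.6 CPM and at 112 and 39.9 CPM.

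Growth factors mostly had log2 ratios below 0, and receptors differed in direction. Of 23 growth factors tested out of 34, 4 were at least 2-fold lower and 3 higher, and of 34 receptors 4 and 5. Over all genes 6.73% were lower and 6.85% higher. Ratios below 0 were found for 18 growth factors and 19 receptors, and the growth factors summed to 4370 and 2242 CPM. Growth factors gave 4 lower and 3 higher of 26 in the leukocyte-depleted gate, and receptors 8 and 1 of 34. The shares of all genes there were 12.5% lower and 10.7% higher. *Ereg*, the EGF receptor ligand epiregulin, had 39 UMIs in 25 PBS cells and none in the anti–PD-1 gate, at least 3.30-fold lower when 3 UMIs are taken as the limit that a count of 0 allows. *Rspo3*, an enhancer of Wnt signaling, had 58 and 3 UMIs (ratio 4.91, 1.60 to 24.5). *Itga8*, an integrin chain of stellate cells and myofibroblasts, was at 171 and 24.5 CPM, and the endothelin receptor *Ednrb* at 121 and 18.4 CPM. The PDGF receptors, which were gate markers, stood at 146 and 178 CPM (*Pdgfra*) and at 238 and 159 CPM (*Pdgfrb*).

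Genes that separate kinds of mesenchymal cells differed by kind. Of 16 smooth muscle and pericyte genes, 7 were at least 2-fold lower and none higher (median −0.78), and of 17 stellate cell genes 5 were lower and 1 higher (median −0.72). Of 15 portal fibroblast genes, 7 were at least 2-fold higher, against 6.85% of all genes, and 1 lower, with a median of 0.85. The leukocyte-depleted gate gave 9 of 15 portal genes higher and 1 lower (median 1.04), and 10 of 16 smooth muscle genes lower and 1 higher (median −1.90). Of 19 stellate genes tested there 3 were lower and 3 higher (median −0.47), near the shares of all genes, so a lower level of that list was not shown in that set.

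Among portal and adventitial genes, *Clec3b*, the plasminogen-binding protein tetranectin, stood at 103 CPM (86.0 to 122) with PBS and 546 CPM (469 to 632) with anti–PD-1 (log2 ratio 2.35) and was detected in 28 and 19 cells. *Ly6a*, the stem and stromal antigen Sca-1, was at 333 and 1021 CPM, and *Cd34*, a sialomucin of adventitial fibroblasts and vessels, at 182 and 402 CPM. *Pi16*, a peptidase inhibitor domain protein of adventitial fibroblasts, was at 213 and 1662 CPM, but 360 of its 542 anti–PD-1 UMIs came from 1 cell. *Eln* was the member that was lower. With only the cells holding Y-linked transcripts, the log2 ratio was 1.90 for *Clec3b*, 2.54 for *Ly6a* and 2.05 for *Pi16*.

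Single stellate and mural genes that passed 2-fold in the whole gate were mostly lower. *Adamtsl2*, a fibrillin-binding matrix protein, was at 502 and 172 CPM, *Hand2*, a stellate cell transcription factor, at 103 and 33.7 CPM, and *Rgs4*, a G protein regulator of mural cells, at 87.2 and 15.3 CPM. *Lrat*, the enzyme that stores vitamin A and a defining stellate marker, rested on 56 and 8 UMIs and its interval of the log2 ratio ran from −1.70 to 0.21. *Ecm1*, a secreted matrix protein of stellate cells, was the exception, at 298 and 613 CPM. *Rgs5*, a pericyte gene, was at 1091 and 767 CPM, and 145 of 250 anti–PD-1 UMIs were in 1 cell.

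Shares of cells were compared after each cell was thinned to 1000 UMIs, which left 247 PBS and 79 anti–PD-1 cells and took out 55 and 16 shallower ones. Cells with at least 2 of *Acta2*, *Tagln*, *Myl9* and *Tpm2* made up 38.1% (32.0% to 44.4%) of the PBS gate and 19.0% (11.0% to 29.4%) of the anti–PD-1 gate, and without thinning 48.0% and 29.5%. In the leukocyte-depleted gate the thinned shares were 39.3% (32.0% to 47.0%) and 26.3% (13.4% to 43.1%), on 173 and 38 cells, with intervals that overlap, so that a smaller share of contractile cells was not detectable there. Cells with at least 2 of the 6 portal genes made up 17.0% (12.5% to 22.3%) and 25.3% (16.2% to 36.4%), with intervals that overlap, and 30.5% and 29.5% without thinning, so no difference in that share is shown. *Clec3b* was detected in 7.29% (4.38% to 11.3%) and 20.3% (12.0% to 30.8%) of thinned cells and *Tagln* in 41.7% (35.5% to 48.1%) and 20.3% (12.0% to 30.8%), with intervals apart. In the leukocyte-depleted gate the intervals of both genes overlapped. *Clec3b* was there at 11.0% (6.74% to 16.6%) and 26.3% (13.4% to 43.1%), and *Tagln* at 45.1% (37.5% to 52.8%) and 26.3% (13.4% to 43.1%). The shares with *Acta2* were 41.7% (35.5% to 48.1%) and 26.6% (17.3% to 37.7%), with intervals that overlap, and in the leukocyte-depleted gate 43.4% (35.9% to 51.1%) and 34.2% (19.6% to 51.4%).

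For *Acta2* and *Clec3b*, the same shares in B cells, which should lack both genes, served as the background of free RNA. They were 2.34% and 0.413% for *Acta2* and 0% (0 of 684 cells, which allows a share of up to 0.439%) and 0.207% for *Clec3b*, at median depths of 1764 and 2418 UMIs. The fibroblast gate's higher shares were in part fixed by the selection, so they do not show a level above free RNA. *Ly6a* was not used as such a background. Its B cell shares were 30.8% and 39.2%, above the 13.4% and 35.4% of the fibroblast gate, and whether B cells themselves express it was not tested. Cells that met none of the contractile, portal and stellate limits were also counted, the last being at least 2 of *Lrat*, *Reln*, *Ecm1*, *Colec11*, *Rgs5* and *Hand2*. They made up 42.9% (36.7% to 49.3%) of the PBS gate and 53.2% (41.6% to 64.5%) of the anti–PD-1 gate, with intervals that overlap. In the leukocyte-depleted gate the order was the other way, at 35.8% (28.7% to 43.5%) and 28.9% (15.4% to 45.9%), also with overlap.

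**Figure D3:**
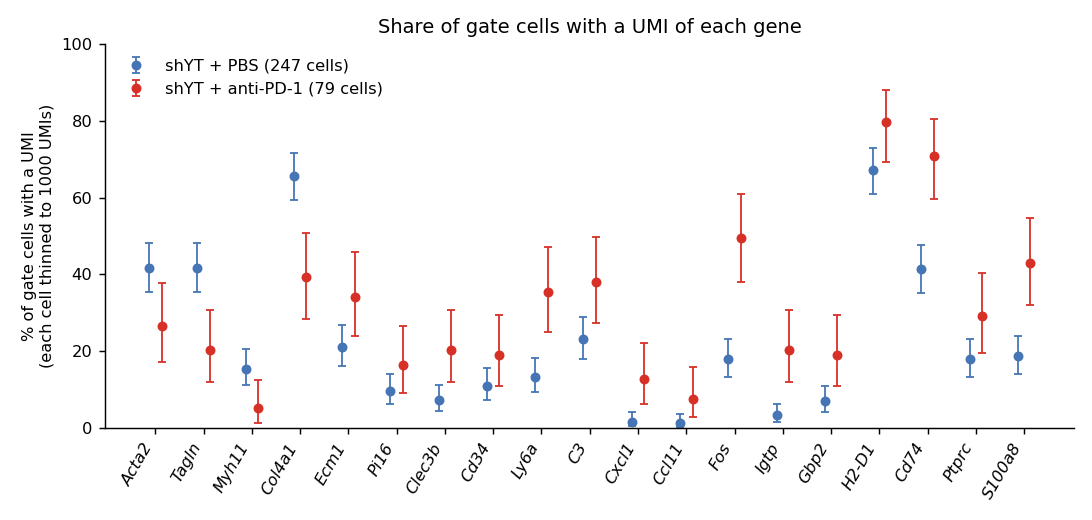
Percent of gate cells with a UMI of each gene after thinning to 1000 UMIs per cell, with exact 95% intervals as bars (247 PBS and 79 anti–PD-1 cells). Contractile genes had lower detected shares in anti–PD-1 cells, with intervals apart for *Tagln* (41.7% and 20.3%) and overlapping for *Acta2* (41.7% and 26.6%). *Col4a1* was also lower with intervals apart. *Clec3b*, *Ly6a*, *Cxcl1*, *Fos*, *Igtp*, *Gbp2*, *Cd74* and the neutrophil gene *S100a8* (18.6% and 43.0%) had higher shares with intervals apart. In the leukocyte-depleted gate, which is not drawn, intervals overlapped for *Tagln*, *Clec3b*, *Igtp*, *Gbp2* and *Cd74*. They stayed apart for *Col4a1*, *Ly6a*, *Cxcl1*, *Fos* and *S100a8* (7.51% and 36.8%). In thinned B cells the *S100a8* shares were 11.1% and 36.8%.

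Inflammatory fibroblast genes were higher in the anti–PD-1 gate. Of 28 members 23 were tested, which include *Pi16*, *Clec3b* and *Dpt* of the portal list, and 14 of them were at least 2-fold higher and 2 lower, with a median log2 ratio of 1.24. The counts were again 14 and 2 in the leukocyte-depleted gate, with a median of 1.25. Without *Pi16*, *Clec3b* and *Dpt*, which helped to select the cells with portal genes, 12 of 20 were higher and 2 lower in the whole gate and 11 and 3 of 19 in the cells with portal genes, against 10.8% higher of all genes there. Higher medians of this list were not particular to the gate, with 1.51 in macrophages (13 genes tested), 1.12 in T cells (9 genes) and 0.86 in epithelium (10 genes) of the same libraries, against 0.26 in endothelium (13 genes) and 0.025 in neutrophils (11 genes). *Cxcl1*, a chemokine that draws neutrophils (chromosome 5, 90891241 to 90893115, GRCm38), had the highest ratio of the genes that the naming rule below admitted. It stood at 10.1 CPM (5.39 to 17.3) in the PBS gate, with 13 UMIs in 6 cells, and at 353 CPM (291 to 423) in the anti–PD-1 gate, with 115 UMIs in 19 cells. The log2 ratio was 4.56 (3.94 to 5.16), and 34 of the 115 UMIs were in 1 cell. Among cells with Y-linked transcripts it was 6.33.

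The level of *Cxcl1* differed between sets of cells. After anti–PD-1 it stood at 508 CPM in the leukocyte-depleted gate and 538 CPM in the cells with portal genes, against 268 CPM in macrophages, 174 CPM in epithelium and 67.6 CPM in neutrophils. With every gate cell holding *Ptprc*, *Krt19*, *Krt8*, *Alb* or *S100a8* left out, however, which left 96 and 16 cells, the log2 ratio of *Cxcl1* fell to 1.05. Its relative *Cxcl2* showed the opposite order over the whole gate, the leukocyte-depleted gate and the cells with portal genes. It stood at 408 CPM in the whole anti–PD-1 gate, 139 CPM in the leukocyte-depleted gate and 75.9 CPM in the cells with portal genes, against 2142 CPM in macrophages and 4239 CPM in neutrophils. The neighbouring genes thus differed in which cells carried their UMIs.

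The promoters of both chemokine genes are shown because each held the same NF-kB site, the motif of the main inflammatory transcription factor, in capitals. They are the 250 bases upstream of each start on the plus strand of GRCm38.p6, from RefSeq, at chr5:90890995-90891244 for *Cxcl1* and chr5:90903649-90903898 for *Cxcl2*.
Cxcl1: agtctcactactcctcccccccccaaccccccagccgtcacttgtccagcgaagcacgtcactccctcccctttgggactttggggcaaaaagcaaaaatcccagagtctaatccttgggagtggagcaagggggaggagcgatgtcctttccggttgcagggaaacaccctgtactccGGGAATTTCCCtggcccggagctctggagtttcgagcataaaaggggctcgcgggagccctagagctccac
Cxcl2: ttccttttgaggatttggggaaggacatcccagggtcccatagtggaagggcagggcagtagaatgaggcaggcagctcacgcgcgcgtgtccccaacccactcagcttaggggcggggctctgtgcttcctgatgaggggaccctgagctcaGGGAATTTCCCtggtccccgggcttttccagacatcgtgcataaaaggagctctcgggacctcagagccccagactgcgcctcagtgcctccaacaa
The capitals hold 2 overlapping matches, 1 on each strand. An NF-kB motif was found in 6 of 21 inflammatory fibroblast genes with a promoter sequence (28.6%) and in 8.23% of all 27025 genes. The share was about the same in the contractile list, which was lower (4 of 15, 26.7%), and in the early response list (5 of 18, 27.8%), and larger in MHC class I (8 of 15, 53.3%), so the motif was not particular to the inflammatory list.

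Other secreted products of inflammatory fibroblasts went with *Cxcl1*. *Ccl11*, the eosinophil chemokine eotaxin, stood at 25.7 CPM (17.7 to 36.1) and 190 CPM (146 to 244), and *Ccl7*, which draws monocytes, at 3.11 and 42.9 CPM (4 and 14 UMIs). *Ptgs2*, the inducible cyclooxygenase, was at 16.4 and 138 CPM. *Has1*, a hyaluronan synthase, was at 3.11 and 85.9 CPM, but 20 of its 28 anti–PD-1 UMIs were in 1 cell. *C7*, a component of the complement attack complex, was at 16.4 CPM (10.1 to 25.0) and 190 CPM (146 to 244), in 12 and 16 cells. Outside the fibroblast gate *Ccl11*, *C7* and *Has1* were at or under 2.56 CPM in the other gates of both libraries.

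*Il6*, the cytokine by which inflammatory CAFs are often defined, was among the 14 higher genes (log2 ratio 1.24, 0.096 to 2.29), but it rested on 8 and 7 UMIs. Other members were level or lower. *Cxcl12*, which retains T cells and progenitors through CXCR4, was at 472 and 543 CPM, with an interval of its log2 ratio from −0.05 to 0.44. *Cxcl14*, a chemokine of resting epithelium and stroma, was at 167 and 42.9 CPM, and the IL-1 receptor *Il1r1* at 133 and 49.1 CPM. *Saa3*, an acute phase protein, was at 48.3 and 30.7 CPM, and 43 of its 62 PBS UMIs came from 1 cell.

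Complement genes were higher in 6 of 14 and lower in 1 of 14 by at least 2-fold, with a median of 0.94, and in the leukocyte-depleted gate in 9 and 1 of 14. *C3*, the central component, stood at 599 and 1260 CPM, and at 632 and 1892 CPM in the leukocyte-depleted gate. *Serping1*, the C1 inhibitor, was at 1097 and 1619 CPM. The membrane regulators differed in direction, with *Cd55* at 69.3 and 233 CPM (42 of 76 anti–PD-1 UMIs in 1 cell) and *Cd59a* at 80.2 and 21.5 CPM. Of 17 chemokines, 8 were at least 2-fold higher and 2 lower in the whole gate, and 13 and 2 in the leukocyte-depleted gate. The fractalkine gene *Cx3cl1*, whose membrane-bound product binds monocytes and T cells, was lower, at 157 and 55.2 CPM.

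Genes known to respond to interferon-γ were higher. Of 26 tested members out of 29, 21 were at least 2-fold higher and none lower, all 26 had log2 ratios above 0, and the median was 1.27. The count was lower without leukocyte-rich cells, at 13 of 25 with a median of 1.03, and it was 11 of 23 in cells with portal genes. *Irf1*, a transcription factor of the interferon response, was at 48.3 and 138 CPM. *Gbp2*, a guanylate-binding protein, was at 69.3 and 279 CPM and *Igtp*, an immunity-related GTPase, at 41.3 and 178 CPM.

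Without the leukocyte-rich cells *Gbp2* was at 55.8 and 195 CPM and *Igtp* at 34.6 and 111 CPM, on 28 and 16 UMIs in the anti–PD-1 library. The difference in these genes was therefore present with fewer leukocyte transcripts, at a smaller size. In cells with Y-linked transcripts the log2 ratio was 0.61 for *Gbp2* and 2.25 for *Igtp*. *Tgtp1* and *Tgtp2*, and likewise the *H2-Q* genes, are near-identical copies between which reads could be split, and their single values are uncertain. Neutrophil and macrophage marker sums moved with this list in the whole gate, and their part in its count was not tested beyond these smaller sets.

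The promoters of *Gbp2* and *Igtp* are shown because they held the motifs through which interferon acts, GAS (TTCNNNGAA) and an ISRE core (GAAANNGAAA, on either strand). Both are the 250 bases upstream of the start on the plus strand of GRCm38.p6, from RefSeq, at chr3:142620413-142620662 and chr11:58199306-58199555. In *Gbp2* the capitals mark an ISRE core on the minus strand, and in *Igtp* they mark a GAS followed by an ISRE core.
Gbp2: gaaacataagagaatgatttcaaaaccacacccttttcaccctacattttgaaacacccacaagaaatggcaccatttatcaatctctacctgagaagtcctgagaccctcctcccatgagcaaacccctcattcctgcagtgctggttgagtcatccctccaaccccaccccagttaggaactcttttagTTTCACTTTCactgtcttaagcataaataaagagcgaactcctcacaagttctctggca
Igtp: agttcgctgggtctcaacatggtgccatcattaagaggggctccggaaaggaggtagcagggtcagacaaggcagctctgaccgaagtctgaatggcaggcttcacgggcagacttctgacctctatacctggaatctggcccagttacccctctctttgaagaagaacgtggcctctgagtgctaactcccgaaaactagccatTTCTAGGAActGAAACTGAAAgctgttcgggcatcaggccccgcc
Of 21 interferon-γ genes with a promoter sequence, 9 held a GAS (42.9%) and 10 an ISRE core (47.6%), against 8.13% and 3.46% of all 27025 genes.

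The T cell–attracting chemokines varied with the set of cells. *Cxcl9* was at 35.0 and 42.9 CPM in the fibroblast gate, with an interval of its log2 ratio from −0.58 to 1.05, while in the endothelial gate it stood at 51.8 and 1262 CPM and in the epithelial gate at 11.7 and 392 CPM. *Cxcl10* was at 56.8 and 126 CPM in fibroblasts, a log2 ratio of 1.08 that counts among the 21 higher genes, and 28 of its 73 PBS UMIs were in 1 cell. The log2 ratios of *Cxcl9* and *Cxcl10* were 1.97 and 2.06 in the leukocyte-depleted gate and −4.03 and −2.05 in cells with Y-linked transcripts. Of 10 genes of interferon receptors and their signaling, 3 were at least 2-fold higher and none lower, and 2 and 1 in the leukocyte-depleted gate. *Irf9*, a subunit of the interferon-induced transcription complex, was among the higher ones at 36.6 and 85.9 CPM, whereas members of the receptor and kinase level were within 2-fold, with *Ifngr1* at 125 and 175 CPM, *Ifngr2* at 85.7 and 70.5 CPM and *Jak1* at 222 and 205 CPM. *Cd274*, which encodes PD-L1, rested on 14 UMIs in each gate (10.9 and 42.9 CPM) and on 4 and 3 UMIs in the leukocyte-depleted gate.

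**Figure D4:**
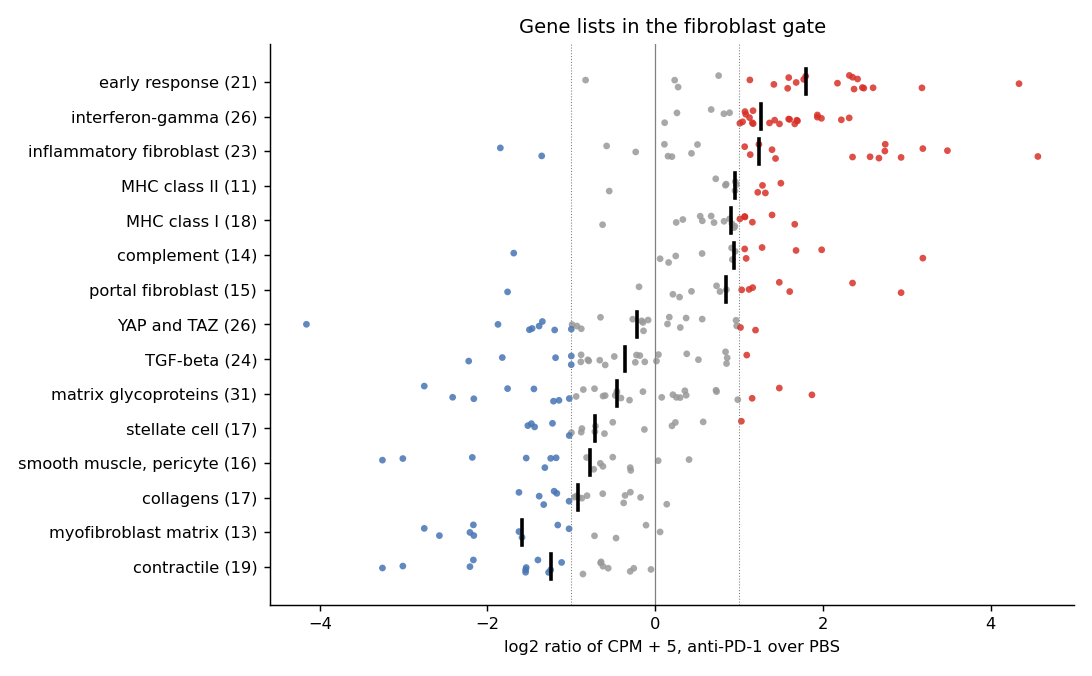
Each point is the log2 ratio (anti–PD-1 over PBS) of 1 tested list member in the whole gate, with a black bar at the list's median. Medians of the contractile and myofibroblast lists stood below 0, and those of the early response, inflammatory and interferon-γ lists above 0. They had the same signs in the leukocyte-depleted gate and in the cells with portal genes, which are not drawn. MHC class I had medians of 0.90, 0.65 and −0.04 in these 3 sets.

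MHC class I genes, which present peptides to CD8+ T cells, were higher by less than 2-fold in most cases. Of 18 tested, 17 had log2 ratios above 0 and 6 were at least 2-fold higher, with a median of 0.90. *H2-D1* stood at 1348 CPM (1285 to 1413) and 2828 CPM (2648 to 3016), *H2-K1* at 1007 and 1641 CPM and *B2m*, the shared light chain, at 3208 and 4033 CPM. The leukocyte-depleted gate had 3 of 17 at least 2-fold higher with a median of 0.65, and the cells with portal genes had none, with a median of −0.04. The whole-gate difference in this list was thus not seen in the set of cells with portal genes.

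MHC class II genes, which few cells other than antigen-presenting cells carry, gave 4 of 11 at least 2-fold higher, with a median of 0.96. *Cd74*, the invariant chain, was at 1014 and 2374 CPM, of which 306 of 774 anti–PD-1 UMIs were in 1 cell, and *H2-Ab1* was at 333 and 598 CPM. In the leukocyte-depleted gate *Cd74* was at 458 and 1384 CPM and *H2-Ab1* at 136 and 369 CPM, and 6 of 9 genes were at least 2-fold higher. Macrophages carried *Cd74* at 16286 and 16744 CPM, and the share of this RNA that reached gate cells from other cells was not measured gene by gene. With a general share of free RNA taken off (15.4% and 15.97% of UMIs), 8 of the list were at least 2-fold higher, but the PBS levels of *Cd74*, *H2-Aa*, *H2-Ab1*, *H2-Eb1*, *H2-DMa* and *Ctss* were then 0, so the PBS gate held no more of these RNAs than that share. The levels left in the anti–PD-1 gate were 667 CPM for *Cd74* and 205 CPM for *H2-Ab1*.

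Early response genes, which are induced within minutes by growth factors, stress and also by tissue digestion, were higher throughout the gate. Of 21 tested out of 23, 17 were at least 2-fold higher and none lower, and the median was 1.80. The leukocyte-depleted gate gave the same counts with a median of 1.82, and the cells with portal genes gave 16 higher and 1 lower of 20 with a median of 2.09. *Fos* stood at 290 CPM (261 to 321) and 1629 CPM (1493 to 1773), in 92 of 302 and 60 of 95 cells, *Fosb* at 14.8 and 396 CPM and *Egr1* at 152 and 776 CPM. *Nr4a1*, a nuclear receptor of acute stimulation, was at 56.1 and 549 CPM.

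Stress genes were less uniform. Of 13 heat shock genes 2 were at least 2-fold higher, *Hspa1a* at 111 and 647 CPM and *Hspa1b* at 84.9 and 233 CPM, which are near-identical copies, and the other 11 were within 2-fold. The leukocyte-depleted gate also gave 2 of 13. Of 15 genes of NF-kB feedback 7 were higher and none lower, among them *Nfkbia*, the inhibitor that NF-kB itself induces, at 236 and 954 CPM. Fewer were higher in the smaller sets, with 5 higher and 1 lower (median 0.32) in the leukocyte-depleted gate and 4 and 2 of 14 in the cells with portal genes. Hypoxia and glycolysis genes were level, with 1 of 17 higher and a median of −0.07 (1 higher and 1 lower in the leukocyte-depleted gate), and of 12 cell cycle genes 2 were lower and none higher, against 2 lower and 3 higher in the leukocyte-depleted gate. None of 10 housekeeping genes differed by 2-fold in the whole gate (median −0.23) or in the leukocyte-depleted one (median −0.14). The labels give 1 digestion protocol for both libraries, and the part of digestion in the early response values was not tested.

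The 10 genes with the highest ratios, among genes with a mean of at least 20 CPM and UMIs in at least 10 cells of the higher library, were *Cxcl1*, *Fosb*, *Slfn4*, *Try5*, *Ly6c2*, *Iglc1*, *Hdc*, *Cd14*, *Trem1* and *Il1b*. Most of them are genes of myeloid cells. *Slfn4*, a gene of myeloid cells, was at 16.4 and 377 CPM in the gate but at 1.12 and 13.9 CPM in the leukocyte-depleted gate, against 528 and 1648 CPM in neutrophils. *Il1b*, the inflammasome cytokine, was at 48.3 and 601 CPM and at 3.35 and 62.6 CPM, and *Cd14*, the endotoxin coreceptor, at 29.6 and 396 CPM and at 11.2 and 90.4 CPM. *Ly6c2* and *Iglc1* rested on single cells, with 239 of 285 and 144 of 189 anti–PD-1 UMIs in 1 cell each. *Try5*, a pancreatic trypsinogen with close copies, was at 0.779 and 92.0 CPM, and at 1.37 and 2612 CPM in the epithelial gate of the same libraries.

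The 10 genes with the lowest ratios were *Xist*, *Akr1cl*, *Alb*, *Ankrd1*, *Fgb*, *Serpina1c*, *Scube1*, *Perp*, *Hspb7* and *Cdh15*. *Xist* had 258 and 0 UMIs. *Alb*, *Fgb* and *Serpina1c* are secreted hepatocyte products. The hepatocyte marker sum, which can include such genes, stood at 599 and 319 CPM. *Scube1*, a secreted and membrane glycoprotein, had 74 UMIs in 40 PBS cells and none in the anti–PD-1 gate, at least 6.26-fold lower, and *Hspb7*, a small heat shock protein of muscle, had 58 UMIs in 28 cells and none, at least 4.91-fold lower. Of the 190 PBS UMIs of *Akr1cl*, 89 came from 1 cell, and of the 128 of *Serpina1c*, 102 did.

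The same lists were set beside other cells of the same 2 libraries, gated in the same way on markers of each type. The median log2 ratio of the contractile list was −1.25 in fibroblasts, −0.66 in epithelium (773 and 356 cells), −0.09 in endothelium (281 and 39 cells) and −0.04 in macrophages (3904 and 4034 cells). In thinned B cells the detected shares were also lower with anti–PD-1, at 2.34% and 0.413% for *Acta2* and 2.63% and 0.103% for *Tagln*. The part of free RNA in the contractile difference was not tested. Other lower lists had medians of like size in some of the other gates. The collagen list, gate markers included, had medians of −0.91 in fibroblasts, −0.89 in endothelium, −0.96 in neutrophils, −0.96 in T cells, −0.33 in epithelium and −0.38 in macrophages, and the smooth muscle and pericyte list −0.78 in fibroblasts, −0.93 in endothelium and −0.85 in epithelium. The median of the early response list was 1.80 in fibroblasts, 1.59 in epithelium, 1.40 in macrophages and 1.15 in endothelium, so these genes were higher in each of those gates. The interferon-γ list had a median of 1.27 in fibroblasts, and of 2.02 in endothelium, 2.12 in epithelium and 1.59 in macrophages. MHC class II medians were 0.96, 1.55, 1.65 and −0.10 in the same order. The differences between cell types were not tested, since each is a difference of single libraries.

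**Figure D5:**
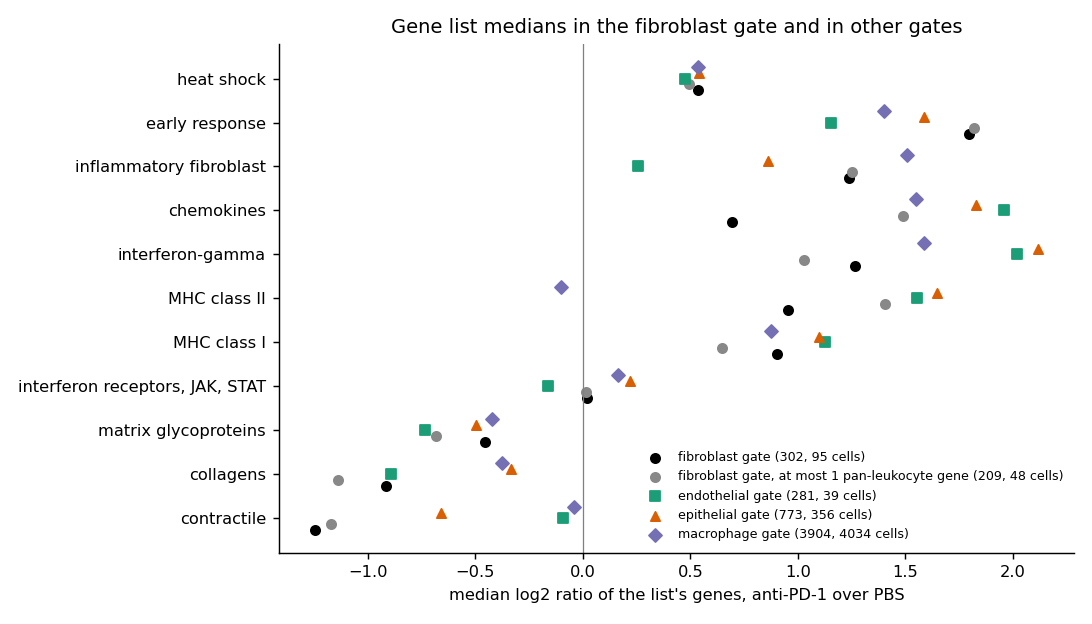
Median log2 ratio (anti–PD-1 over PBS) of gene lists in the fibroblast gate and in gates of other cell types of the same 2 libraries. The contractile list was at −1.25 in fibroblasts and between −0.66 and −0.04 in epithelium, endothelium and macrophages, while the interferon-γ list was above 0 in each of them.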

How the data were processed

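The gene-by-cell matrices of UMI counts, 1 per library, were used as the authors deposited them. The submitters' processing notes name mm10 and Seurat 4.3, and the study's methods name Singleron software for demultiplexing, alignment and counting. Libraries held 19397 and 19451 barcodes. Gate counts were summed per library and divided by their total (CPM). Log2 ratios were taken after adding 5 CPM, for genes with a mean of at least 10 CPM. Poisson intervals were exact, shares had exact Clopper-Pearson intervals, and intervals of log2 ratios combined both Poisson intervals. Floors used 3 UMIs. Python 3.11.15, numpy 2.4.6, scipy 1.17.1, pandas 2.3.3 and matplotlib 3.10.9 were used, and the scripts were checked on simulated data.

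The members, gene lists and sets of cells were chosen with earlier results of these data known, so no list is independent evidence. Genes were named as gate markers, as list members past 2-fold or known for their list, as the 15 leading gate genes, or as the 10 highest and 10 lowest ratios. A doublet score from simulated pairs marked 4.57% and 5.24% of cells, which were kept in the main values. Gene coordinates came from the GENCODE annotation of GRCm38 and promoters from RefSeq. Alternatives varied the gate, doublets, Y-linked transcripts in the cells, pseudocount, scaling, weight of cells, free RNA and filters. One member of the interferon-γ list is not reported here by value.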

Additional observations from a re-analysis of the deposited data

How the results depend on the processing

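With 1 library per group no replicate could be left out, and no result has a test. No paired analysis was possible because each group has 1 library and no result comes from a test. Depth limits the anti–PD-1 gate most, where 3 UMIs are worth 9.20 CPM, against 2.34 CPM in the PBS gate. The counts of contractile genes (11) and inflammatory genes (14) moved by less than 1.5 times under every setting run, but the background of all genes did not stay level. With cells holding *Ptprc*, *Krt19*, *Krt8*, *Alb* or *S100a8* left out, 14 of 18 contractile genes were lower, against 2344 of 8617 genes in all. In the same set 14 of 21 inflammatory genes were higher, against 2011 of 8617. The background there was thus larger than in the whole gate. For each change below the cause was not tested.

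The share of cells in the gate (1.94% with PBS and 0.581% with anti–PD-1) was 1.53% and 0.324% with at least 4 markers, 2.67% and 1.08% with at least 2, and 0.618% and 0.0978% with cells holding *Ptprc*, *Krt19*, *Krt8*, *Alb* or *S100a8* left out (96 and 16 cells). It was 1.35% and 0.293% with at most 1 pan-leukocyte gene, 0.592% and 0.171% with at least 2 portal genes, 1.27% and 0.287% with gate markers at 1% of UMIs or more, and 1.35% and 0.560% among cells with Y-linked and no *Xist* UMIs.

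In the whole gate 660 of 9638 genes were higher and 649 lower. They became 2011 and 2344 of 8617 with the further exclusion, and 1569 and 1559 of 9299 in cells with Y-linked transcripts. With at most 1 pan-leukocyte gene they became 1007 and 1180 of 9410. At a mean of at least 50 CPM they became 260 and 170, but of only 3611 genes. The lower genes alone became 1376 with each cell weighted the same, on a similar number of genes, and 993 of 8972 in cells with portal genes. Without a filter they became 1202, but of far more genes, so that count is not a larger share. A change in count is thus not by itself a change in share.

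The 21 of 26 interferon-γ genes became 13 of 26 in cells with Y-linked transcripts, 13 of 25 with at most 1 pan-leukocyte gene and 11 of 23 with portal genes. Of all genes, 1569 of 9299, 1007 of 9410 and 967 of 8972 were higher in these sets. The 6 of 18 MHC class I genes became 2 of 18 with at least 4 markers and 2 of 18 without the 5% of cells with most UMIs. They became 3 of 17 with at most 1 pan-leukocyte gene, 2 of 17 with gate markers at 1% or more and 0 of 17 with portal genes. Of all genes, 659 of 9421, 735 of 9615, 1007 of 9410, 697 of 9187 and 967 of 8972 were higher, in that order. The 4 of 11 MHC class II genes became 2 of 11 with at least 2 markers, 2 of 6 at 50 CPM and 10 of 11 in cells with Y-linked transcripts. With free RNA taken off, which left 0 CPM of most of them in the PBS gate, they became 8 of 9. Of all genes, 699 of 9707, 260 of 3611, 1569 of 9299 and 857 of 9341 were higher, in that order. The 6 of 17 lower collagens, gate markers included, became 12 of 17 with at least 2 markers, 10 of 17 without marked doublets and 10 of 17 with at most 1 pan-leukocyte gene. Of all genes, 836 of 9707, 697 of 9569 and 1180 of 9410 were lower, in that order.

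Of 97 named genes at least 2-fold apart in the whole gate, the log2 ratio turned sign for 10 with the further exclusion, *Plaur* (−0.45), *Mmp9*, *Il6*, *Slfn4*, *Iglc1* and *Hdc* (−0.72 each), *Cd274* (−1.19), *H2-D1* (−0.018), *Ly6c2* (−2.08) and *Serpina1c* (1.23). A value that several genes share, such as −0.72, is what very few UMIs give after 5 CPM is added, here in 96 and 16 cells. Such turns are therefore not read as reversals. The log2 ratio also turned sign for *Mmp9* with at least 4 markers (−0.46), *Tgfb2* (0.12) and *Cxcl10* (−2.05) in cells with Y-linked transcripts, *Ly6c2* (−1.04) and *Iglc1* (−0.63) with portal genes, *Ly6c2* (−0.70) with gate markers at 1% or more, and *Timp1* (0.076) with each cell weighted the same. Of the 97, 17 kept their sign but came under 2-fold with the further exclusion, 14 in cells with Y-linked transcripts and 8 with at most 1 pan-leukocyte gene, and 48 did so under at least 1 setting. Apart from those turns, 76 of 121, 70 of 121 and 58 of 124 ratios of named genes with any UMI in the set lay outside the counting interval of the whole gate in these 3 sets. Of 27 named genes under 2-fold, 17 turned sign under at least 1 setting, 6 with the further exclusion, among them *Saa3* (3.89) and *Lrat* (1.72), and 7 in cells with Y-linked transcripts, among them *Cxcl9* (−4.03) and *Postn* (0.97). The ratio of *Cxcl1* (4.56) ran from 1.05 with the further exclusion to 6.33 in cells with Y-linked transcripts. Median-ratio scaling moved no ratio by more than counting error. The sets with at most 1 pan-leukocyte gene, with portal genes and with gate markers at 1% or more were chosen after seeing the data.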
